A study of Drosophila melanogaster with 2 samples.

Results

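The 7 genes described here act in cyclic AMP (cAMP), amine and peptide signalling and are best known from the mushroom body, the olfactory memory centre of the Drosophila brain. They are dunce (dnc), rutabaga (rut), Pka-C1, Dop1R1, Oamb, short neuropeptide F precursor (sNPF) and portabella (prt), 7 of the 13945 protein-coding genes of the annotation, and they were taken by name. The list of names was drawn up with earlier results of these data known, so no count over it is independent support. A peak was given to a gene when its summit lay in the gene body or when the gene held the nearest protein-coding transcription start site (TSS).

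Cyclic AMP is made by adenylyl cyclases and broken down by phosphodiesterases, and it acts in large part through protein kinase A (PKA). In mushroom body neurons, dopamine and octopamine reach this pathway through G protein-coupled receptors, and mutants of dnc and rut were the classic learning mutants of the fly. Dachshund, named for its short-legged mutants, is a transcriptional regulator of eye and leg development that mushroom body neurons also make and need for normal axons.

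The data were chromatin immunoprecipitation sequencing (ChIP-seq) peak lists from whole prepupae, males and females pooled, of a stable transgenic line whose Dachshund protein bears eGFP at its C-terminus. Chromatin was sonicated and recovered with an antibody against GFP, although another label field gives the antibody as dac. There was 1 group of 2 biological replicates, numbered 1 and 3, and their age label of 48 days is at odds with the prepupal stage. Chromatin of animals without the tag was not analysed here, so true sites and non-specifically recovered DNA cannot be told apart, and with 1 group no test between conditions was possible. The chromatin came from all tissues, so a site used in few cells and a weakly used site in many cells cannot be told apart, and none of the values is specific to the mushroom body.

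The authors deposited a list of 4137 peaks that passed the irreproducible discovery rate (IDR) procedure, which weighs how alike peaks rank in replicates. They also deposited relaxed lists of 30000 peaks each for replicate 1, replicate 3 and both pooled. The 4137 highest pooled peaks gave the same gene counts as the IDR list, so the pooled rank of an IDR peak is not separate information. An IDR peak need not be found in each replicate: 96.6% of the 4137 overlapped a peak in both. The signal of a peak is the authors' own value without a stated scale, and it differs in scale between lists, so lists were compared by rank, with rank 1 the highest signal. IDR signal ran from 109.8 to 2090.3 with a median of 172. At a q-value of 0.05 or less, the lists held 9178 pooled peaks, 5282 of replicate 1 and 13828 of replicate 3. Relaxed peaks without that q-value are ranked candidates, not calls. Read depth is unknown.

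Of the 7 genes, 4 held 9 IDR peaks: dnc had 6, and rut, Pka-C1 and sNPF had 1 each. The amine receptor genes Dop1R1 and Oamb and the transporter gene prt had none. The DNA under 5 of the 9 summits is shown because these peaks are the highest of dnc, at its internal promoters, and the single peaks of the other 3 genes. Each line holds 121 bases of the Release 6 reference genome (dm6) from RefSeq, 5′ to 3′ in the direction of the gene, with the summit at base 61. The dnc and sNPF sequences are from the plus strand, at chrX:3294933-3295053, chrX:3255691-3255811 and chr2L:20027401-20027521. The Pka-C1 and rut sequences are from the minus strand, at chr2L:9693068-9693188 and chrX:14812409-14812529. Capitals mark TGTGCAAT, an 8-base word that was picked out by eye after these sequences had been read.
dnc, upstream of the dnc-RE start: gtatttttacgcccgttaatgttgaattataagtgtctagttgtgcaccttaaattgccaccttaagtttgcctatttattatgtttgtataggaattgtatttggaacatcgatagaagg
dnc, upstream of the start shared by 6 transcripts: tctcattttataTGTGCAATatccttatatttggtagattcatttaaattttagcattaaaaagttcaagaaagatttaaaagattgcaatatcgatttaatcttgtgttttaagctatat
sNPF, promoter: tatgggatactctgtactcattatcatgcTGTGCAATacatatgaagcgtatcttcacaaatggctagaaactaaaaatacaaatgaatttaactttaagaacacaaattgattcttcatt
Pka-C1, second intron: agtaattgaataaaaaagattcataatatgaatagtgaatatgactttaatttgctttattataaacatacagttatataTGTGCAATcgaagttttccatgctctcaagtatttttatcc
rut, intron: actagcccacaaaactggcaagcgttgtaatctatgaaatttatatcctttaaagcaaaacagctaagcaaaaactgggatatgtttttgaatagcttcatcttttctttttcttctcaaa

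The word TGTGCAAT lay within 100 bp of 3 of the 9 summits, on either strand. It was 41 bp from the dnc summit at the start shared by 6 transcripts, 20 bp from the Pka-C1 summit and 24 bp from the sNPF summit. The same word lay in 1.595% of all IDR peaks in equal windows, in 1.32% of windows 1000 bp to the side of them and in 0.987% of windows around TSSs. Because the word was chosen from the member sequences themselves, the count of 3 is a description only. A set of 7 other motifs gave no match on either strand within 100 bp of any of the 9 summits: the cAMP response elements TGACGTCA and TGACGCA, the E-box CAGCTG, the repeat GAGAGAG, the Sine oculis core TGATAC, the DREF site TATCGATA and the M1BP core GGTCACAC. These motifs do not overlap one another as words. At least 1 of the 7 was present in 21.8% of all IDR peaks, and the full cAMP response element in 0.218% of them against 0.275% of TSS windows. The shorter element TGACGCA was in 1.18% of IDR peaks and 1.33% of TSS windows. The E-box was in 7.83% of IDR peaks and 13.4% of TSS windows, GAGAGAG in 5.51% and 4.69%, and TGATAC in 6.33% and 4.54%. TATCGATA was in 1.38% of IDR peaks and 6.45% of TSS windows, and GGTCACAC in 1.499% and 5.68%. A missing word says only that these letters are not in these windows. The member windows of 201 bases had a median GC content of 33.8%, ranging from 25.4% to 39.3%, and the median of all IDR peaks was 35.8%.

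Over all protein-coding genes, 2641 of 13945, or 18.9%, had an IDR peak by the same rule, against 4 of these 7. Gene length moves this share. An IDR peak was held by 11.7% of genes under 5 kb, 34.4% of those from 5 to 20 kb, 54.4% of those from 20 to 50 kb and 59.9% of those of 50 kb or more. The lengths of dnc (167 kb), rut (38.6 kb), Pka-C1 (17.0 kb), Dop1R1 (49.4 kb), Oamb (25.6 kb), sNPF (28.5 kb) and prt (2.66 kb) spread over all 4 classes. In the class from 20 to 50 kb, where the share was 54.4%, rut and sNPF had a peak and Dop1R1 and Oamb had none. Beside these shares, the 4 of 7 shows nothing particular to the 7 genes.

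**Figure D1:**
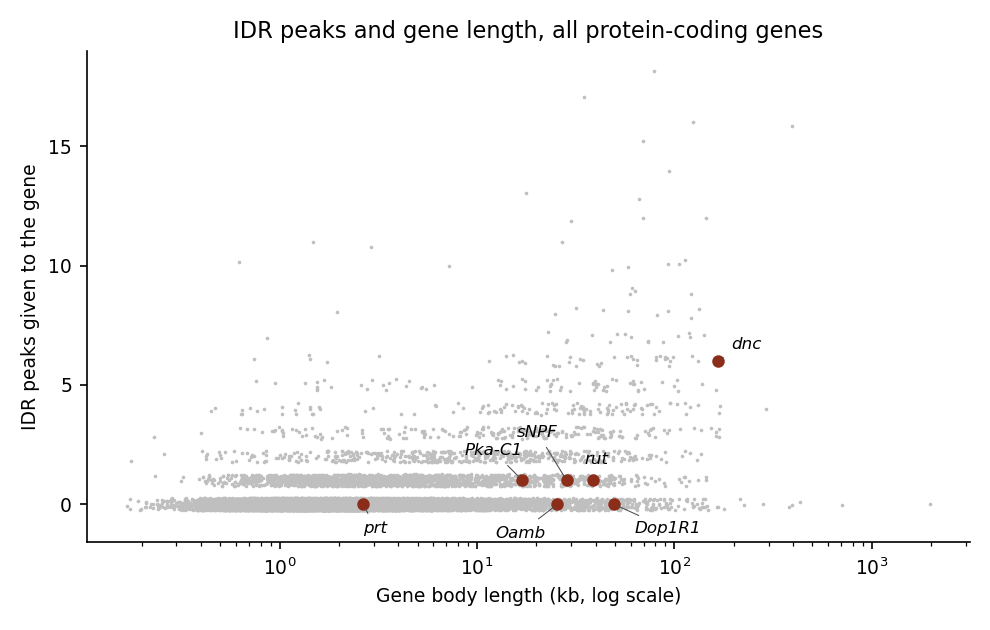
Number of IDR peaks given to a gene (vertical axis, points spread slightly so that they can be seen) against the length of its body in kb (horizontal axis, log scale) for all protein-coding genes in grey and the 7 genes in red. Among the 7, only dnc, with 6 peaks over 167 kb, stands above 1 peak.

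Dunce encodes the cAMP phosphodiesterase that lowers cAMP, and it carried most of the signal among these genes. It lies on the plus strand of chromosome X at chrX:3176440-3343767, with 17 transcripts from 9 TSSs. It had 6 IDR peaks, and 15.6% of the 307 genes of 50 kb or more had at least 6. Per length its value was close to that of the chromosome arm. The dnc body held 3.59 IDR peaks per 100 kb (95% exact Poisson interval 1.32 to 7.80, counting error only), and the whole of arm X held 3.76. In the pooled relaxed list the body held 26.3 peaks per 100 kb (19.1 to 35.3) and arm X 26.0.

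Of the 6 dnc peaks, 4 sat at internal starts and none at the first start. The highest, with an IDR signal of 659, had its summit at position 3294993, which is 288 bp upstream of the start of dnc-RE and 119 kb into the gene. It ranked 123 in the pooled list, 111 in replicate 1 and 134 in replicate 3. The second, with a signal of 559 at 3255751, lay 317 bp upstream of the start shared by 6 transcripts, dnc-RC, dnc-RD, dnc-RI, dnc-RJ, dnc-RN and dnc-RP. It ranked 193 pooled, 135 in replicate 1 and 240 in replicate 3, and replicate 3 had a further peak of rank 584 at the same start. Both thus stood high in each replicate on its own.

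The third, with a signal of 258 at 3329074, lay 333 bp upstream of dnc-RF and ranked 1077 pooled, 1250 in replicate 1 and 1091 in replicate 3. A peak of signal 133 at 3289550, 169 bp past the start of dnc-RQ, ranked 3100 pooled, 5634 in replicate 1 and 2704 in replicate 3. It was therefore weaker in replicate 1 than the IDR list alone shows, and it lay outside the q-value of 0.05 there, although a separate replicate 1 peak of rank 3910, 326 bp upstream of the same start, was within it. In all, 4 of the 9 dnc TSSs had an IDR summit within 500 bp, where 11.2% of the 19252 distinct TSSs of all protein-coding genes did and 11.6% of those of genes of 50 kb or more.

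The other dnc peaks were away from starts. An intronic peak of signal 229 at 3310991 lay 3188 bp upstream of dnc-RG and ranked 1340 pooled, 1291 in replicate 1 and 1352 in replicate 3. The weakest, of signal 122 at 3189988, lay in a UTR exon 13548 bp after the first start. It ranked 3543 pooled and 2194 in replicate 3, and no peak of replicate 1 overlapped it, so it rests on replicate 3.

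At the first dnc start, used by 4 transcripts, peaks ranked far lower: 7624 pooled, 15670 in replicate 1 and 7066 in replicate 3, the first and last of these within the q-value of 0.05. The start of dnc-RA had a pooled candidate of rank 11753, a peak of rank 8861 in replicate 3 that was within that q-value, and none in replicate 1. No relaxed peak of any list lay within 500 bp of the starts of dnc-RR, dnc-RG and dnc-RL. The 9 starts of 1 gene thus ran from rank 123 to no candidate at all.

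**Figure D2:**
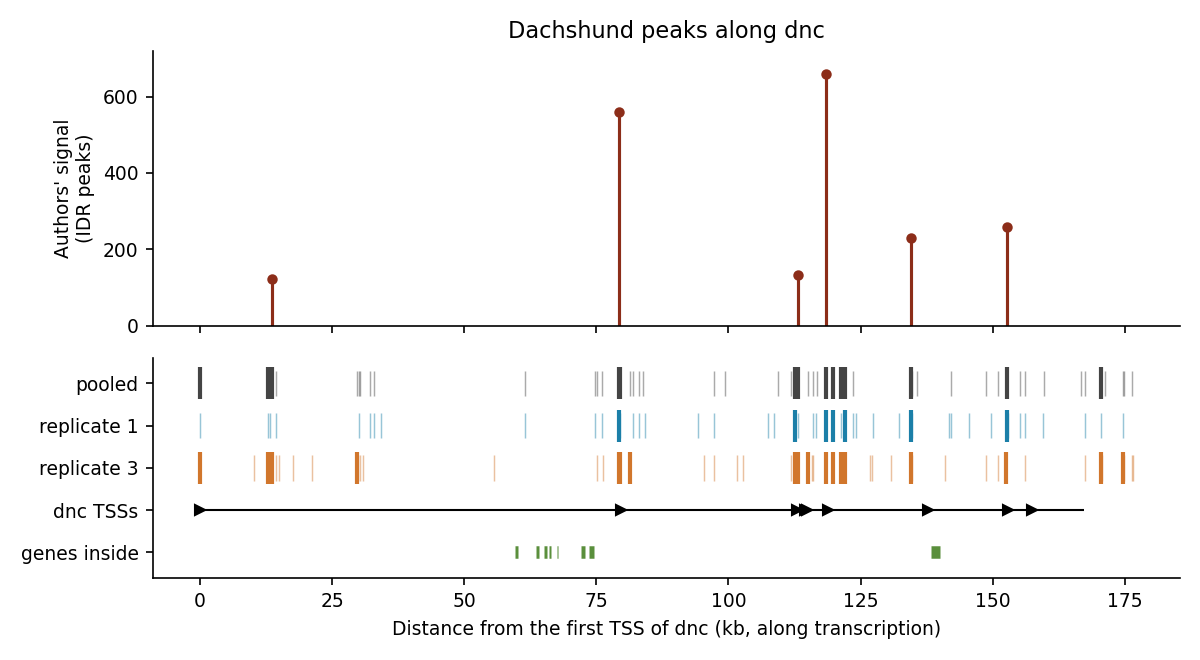
Peaks along dnc, with the distance from the first TSS in kb on the horizontal axis: the upper part gives the authors' signal of the 6 IDR peaks, and the lower part has a line of ticks for the pooled list and each replicate (bold where the q-value is 0.05 or less), arrowheads for TSSs and green blocks for nested genes. The highest IDR peaks, of signal 559 and 659, stand at 79.3 kb and 119 kb.

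Peaks at a q-value of 0.05 or less were gathered in a part of dnc. Of the 14 such pooled peaks, 6 fell in the stretch from 500 bp before the start of dnc-RQ to 5000 bp past that of dnc-RE. It runs from 112.4 to 123.8 kb from the first start, and the 6 summits lay between 112.5 and 122.0 kb. The stretch was picked after the map had been seen. The same stretch held 4 of the 7 in replicate 1, 7 of the 18 in replicate 3 and 2 of the 6 IDR peaks. It includes the starts of dnc-RQ, dnc-RR, dnc-RA and dnc-RE.

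The body of dnc also holds other genes. Nested in it are the salivary glue gene Sgs4 and its neighbours Pig1, ng1, ng2, ng3 and ng4, together with CG14265 and CG10793. None of the 6 IDR peaks had any of them as the nearest start. In the pooled relaxed list, CG14265 was nearest to 4 candidates of the dnc body, Sgs4 to 3 and CG10793 to 1. An antisense non-coding gene, lncRNA:CR44886, overlaps the last part of dnc, and 1 IDR summit of dnc lay inside it, namely the one upstream of dnc-RF, so it cannot be assigned to 1 of the 2 strands.

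Rutabaga encodes the calcium- and calmodulin-responsive adenylyl cyclase that makes cAMP. It lies on the minus strand at chrX:14787478-14826073, with 7 transcripts from 3 TSSs. Its IDR peak, of signal 141 at 14812469, was in an intron 6320 bp after the start of rut-RD and ahead of the start codon. It ranked 2844 pooled, 2953 in replicate 1 and 3417 in replicate 3, below the median signal of the IDR list but alike in both replicates. The rut body held 2.59 IDR peaks per 100 kb (0.0656 to 14.4).

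The promoter of rut differed between replicates. Its outer start had a candidate of rank 4359 in replicate 3, with a signal of 67.4 and a q-value of 0.05 or less. The pooled candidate there was of rank 16434, beyond that q-value, and replicate 1 had none. Over the gene, peaks at that q-value numbered 2 pooled, 1 in replicate 1 and 7 in replicate 3. Replicate 3 had far more peaks at that q-value over the genome, 13828 against 5282, so counts of the replicates are not read against each other.

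Pka-C1 encodes the main catalytic subunit of PKA. It lies on the minus strand at chr2L:9682315-9699297, with 3 transcripts from 1 TSS. Its IDR peak, of signal 154 at 9693128, was in the second intron of all 3 transcripts, 6169 bp after the start. It ranked 2487 pooled, 2423 in replicate 1 and 3187 in replicate 3. At the start itself the pooled list had a peak of rank 5273 and replicate 3 of rank 4517, both within the q-value of 0.05, while replicate 1 had a candidate of rank 28429 a little downstream.

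Candidates were dense along Pka-C1. The pooled list held 53.0 peaks per 100 kb of its body (24.2 to 100.6), where arm 2L held 23.4. Replicate 1 held 70.7 (36.5 to 123.4) against 25.5 on the arm, and replicate 3 held 53.0 (24.2 to 100.6) against 22.0. In the IDR list the value was 5.89 per 100 kb (0.149 to 32.8) against 3.07 on the arm, from 1 peak. At a q-value of 0.05 or less it had 3 pooled peaks, 2 in replicate 1 and 2 in replicate 3.

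Dop1R1 encodes a D1-like dopamine receptor that raises cAMP, and Oamb encodes an octopamine receptor. Dop1R1 lies on the minus strand at chr3R:14165379-14214810 and Oamb on the minus strand at chr3R:20689018-20714577. Neither had an IDR peak. The highest Dop1R1 candidates ranked 18246 pooled, 9422 in replicate 1 and 27152 in replicate 3, and none had a q-value of 0.05 or less. Those of Oamb ranked 14818 pooled, 8268 in replicate 1 and 11988 in replicate 3, and 1 candidate of replicate 3 had that q-value. No relaxed peak of any list lay within 500 bp of the starts of either receptor gene.

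Candidates per length differed between the lists. The Dop1R1 body held 8.09 per 100 kb in the pooled list (2.20 to 20.7), 14.2 in replicate 1 (5.69 to 29.2) and 4.05 in replicate 3 (0.490 to 14.6), from 4, 7 and 2 summits. The Oamb body held 7.82 pooled (0.948 to 28.3), 15.6 in replicate 1 (4.26 to 40.1) and none in replicate 3, where a count of 0 allows up to 11.7. Arm 3R held 21.1 pooled, 21.4 in replicate 1 and 21.2 in replicate 3. The arm value was above the intervals of Dop1R1 in the pooled list and in replicate 3, and above the limit of Oamb in replicate 3. It was within both intervals of replicate 1 and the pooled interval of Oamb, so a lower density was not seen in every list. In the reference, the Dop1R1 body includes a roo insertion from 11236 to 20327 bp after its start and an F element from 29254 to 33943 bp, and no summit of any list lay in either. Such insertions are not particular to Dop1R1: dnc, rut and sNPF hold some too, also without a summit of any list. The part of such repeats in the density of Dop1R1 was not tested. For the IDR list, a count of 0 allows up to 6.07 peaks per 100 kb of Dop1R1 and 11.7 of Oamb, counting error only, so their lack of IDR peaks does not by itself show a density below that of other genes. The nearest IDR summit was 63.2 kb from the start of Dop1R1, in an intron of trx, and 64.1 kb from that of Oamb, at the promoter of Syp. Of all 19252 TSSs, 7.76% and 7.57% were farther from an IDR summit than these, and the median distance was 9.92 kb.

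The sNPF gene encodes the precursor of the short neuropeptide F peptides, which Kenyon cells of the mushroom body release. It lies on the plus strand at chr2L:20027915-20056373 and has 1 transcript. Its IDR peak, of signal 142 at 20027461, was 454 bp upstream of the start, outside the gene body. It ranked 2804 pooled, 1813 in replicate 1 and 6241 in replicate 3, and it was within the q-value of 0.05 in each of these lists. The peak was thus relatively stronger in replicate 1, the opposite of the dnc peaks at dnc-RQ and in the UTR exon.

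Portabella encodes a vesicular transporter-like protein found in mushroom body neurons, whose substrate is not established. It lies on the minus strand at chr3R:23696372-23699027 and has 1 transcript. It had no peak in any of the 4 lists. The nearest IDR summit was 20.3 kb from its start, at the promoter of GILT2, and 29.98% of TSSs were farther from one. A lack of pooled candidates is common at its length: 60.9% of all genes under 5 kb had none. Candidates of the relaxed lists are far denser, with a median distance of 1.499 kb in the pooled list, and by distance prt lay farther out there than most TSSs. Its nearest candidate was 19.8 kb away in the pooled list, 20.3 kb in replicate 1 and 15.1 kb in replicate 3, and 4.64%, 2.37% and 8.93% of TSSs were farther, respectively.

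**Figure D3:**
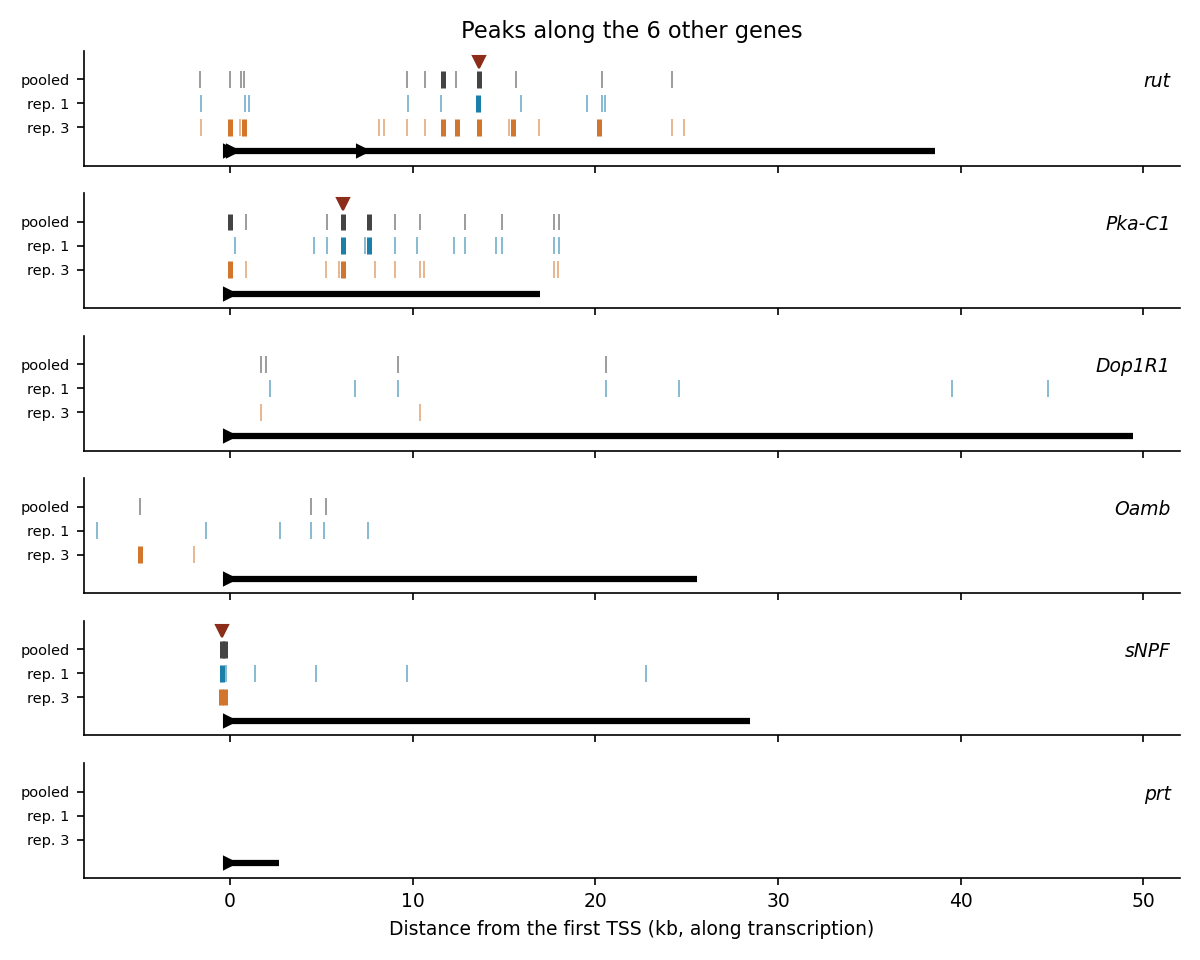
Peaks along rut, Pka-C1, Dop1R1, Oamb, sNPF and prt, with the distance from the first TSS in kb on the horizontal axis and a line of ticks for the pooled list and each replicate above the gene body (black bar, arrowheads for TSSs). Bold ticks have a q-value of 0.05 or less and triangles are IDR peaks. The genes rut, Pka-C1 and sNPF have 1 triangle each, and prt has no tick.

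In the relaxed lists, 6 of the 7 genes had a candidate in each list. That share says little, since 48.8% of all protein-coding genes had one in the pooled list, 53.4% in replicate 1 and 51.6% in replicate 3. At a q-value of 0.05 or less, the genes with a peak were dnc, rut, Pka-C1 and sNPF in the pooled list and in replicate 1, and these with Oamb in replicate 3. The shares of all genes were 29.8%, 20.9% and 38.5%. Counts of pooled candidates were 50 for dnc, 12 for rut, 11 for Pka-C1, 4 for Dop1R1, 3 for Oamb, 2 for sNPF and 0 for prt. Genes of 50 kb or more had a median of 23 pooled candidates, those from 20 to 50 kb 9, those from 5 to 20 kb 2 and those under 5 kb 0.

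**Figure D4:**
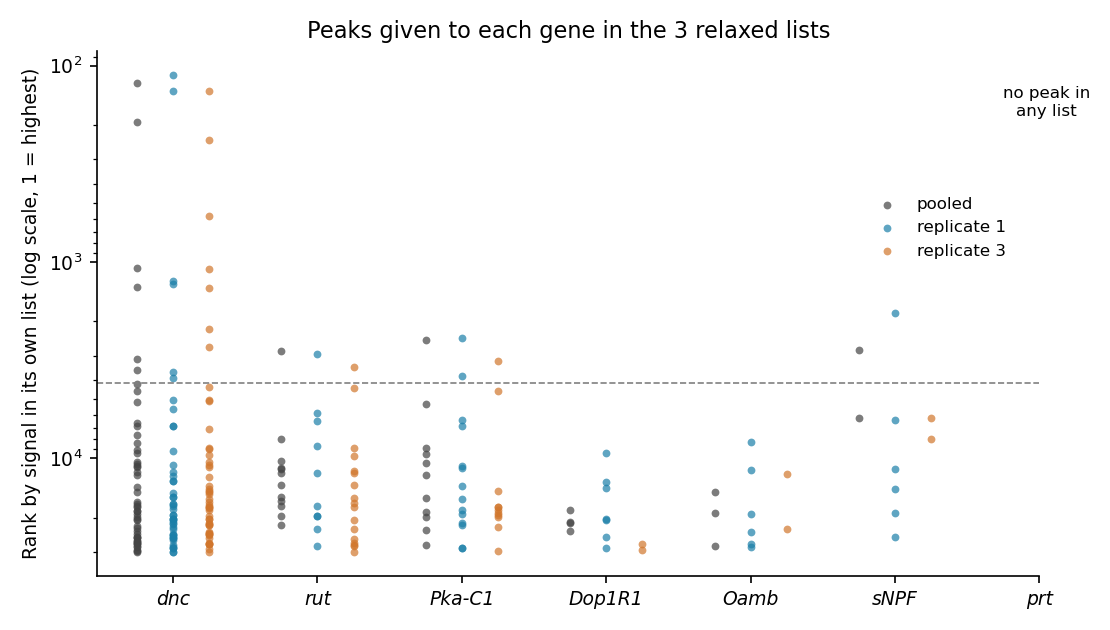
Rank of each peak given to each gene (points) in the pooled list, replicate 1 and replicate 3 (vertical axis, log scale, rank 1 at the top). The dashed line is rank 4137, the number of IDR peaks. The highest dnc points lie at ranks 111 to 134, all those of Dop1R1 and Oamb lie below the line, and prt has none.

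The 9 IDR peaks were seen about as often in the replicates as IDR peaks in general. An overlap of at least 1 bp was found for 8 in the list of replicate 1 and for 9 in that of replicate 3. The 8 peaks found in both are 88.9% of the 9, against 96.6% of the 4137. Among the 4137 highest peaks of each replicate, 6 of the 9 (66.7%) were in both, against 69.5% of all. Summits moved by a median of 13 bp in replicate 1 and 14 bp in replicate 3, where those of all IDR peaks moved by 14 and 14 bp.

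By position, 5 of the 9 summits (55.6%) were within 500 bp of a TSS, 3 were in introns and 1 in a UTR. Over all IDR peaks, 37.9% were at promoters, 44.7% in introns, 1.31% in UTRs and 14.99% between genes. The promoter peaks of these genes lay far out: only 1 of the 9 summits was within 200 bp of a TSS (11.1%, against 23.3% of all IDR peaks). Of the 5 promoter summits, 4 lay at least 250 bp upstream, namely the dnc peaks at dnc-RE, at the start of 6 transcripts and at dnc-RF, and the sNPF peak. Among 1455 promoter summits at protein-coding genes the median position was 125 bp upstream and 22.0% lay that far out. The bound of 250 bp was set after the positions had been seen, and 3 of the 4 summits belong to dnc, so they are not separate genes.

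In signal, 4 of the 9 peaks exceeded the IDR median of 172, and all 4 were of dnc. The median over the 9 was 154, with a range of 122 to 659.

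The wider pathway was described with 90 other genes in 10 roles, also chosen with earlier results known, of which 24 (26.7%) had an IDR peak, 36 peaks in all, beside 18.9% of all protein-coding genes. These genes are longer than most, with a median of 13.3 kb against 2.17 kb. Within length classes, an IDR peak was held by 1 of 19 genes under 5 kb (5.26%), 11 of 37 from 5 to 20 kb (29.7%), 9 of 25 from 20 to 50 kb (36.0%) and 3 of 9 of 50 kb or more (33.3%). Each of these is below the share of all genes in the class, 11.7%, 34.4%, 54.4% and 59.9%. The 15 amine receptor genes of the list, none with an IDR peak, made up 4, 8 and 3 of the genes in the 3 longer classes. The class under 5 kb, also below its share, held no amine receptor gene. The part of the receptors in the lower shares was not tested. With so few genes a class, the shares are descriptions only.

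The amine receptors, which like Dop1R1 and Oamb sense dopamine, octopamine, tyramine or serotonin, had no IDR peak in any of 15 genes. Of these 15, 11 were at least 20 kb long, where the shares of all genes were 54.4% and 59.9%. In the pooled list, 12 of the 15 had a candidate. Genes without any made up 28.7%, 5.10% and 7.17% of all genes in the 3 longer classes, in order of length. At a q-value of 0.05 or less, 5 had a pooled peak, namely Dop1R2, DopEcR, Octalpha2R, 5-HT2B and 5-HT7. At that q-value replicate 1 had a peak at none of the 15 and replicate 3 at 7. The shares of all genes were 29.8% pooled, 20.9% in replicate 1 and 38.5% in replicate 3, without allowing for length. The amine transporter genes Vmat, DAT and SerT, listed as vesicular or membrane transporters, had no candidate in the pooled list or in replicate 3. Each had one in replicate 1, of best rank 11532 for Vmat, 17802 for DAT and 28685 for SerT, none within the q-value of 0.05, while prt had no candidate in replicate 1. Of all genes, 28.7% of those from 5 to 20 kb, the class of DAT and SerT, and 5.10% of those from 20 to 50 kb, the class of Vmat, had no pooled candidate. Among genes under 5 kb, the class of prt, 60.9% had none. Of 9 genes of amine synthesis, Pu, which encodes GTP cyclohydrolase, had an IDR peak, of signal 131.

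The counts by role that follow are to be read beside the length-class shares of all genes, 11.7%, 34.4%, 54.4% and 59.9%, and with so few genes a role they are descriptions only. Of 5 further cyclic nucleotide phosphodiesterases, a role not limited to cAMP, 3 had an IDR peak: Pde6 with a signal of 362, Pde11 with 169 and Pde9 with 139. The 5 are long, with a median of 58.3 kb, and 3 of 5 is close to the 59.9% of all genes of 50 kb or more. Median lengths were 6.11 kb for the cyclases, 17.8 kb for PKA subunits and anchors, 14.7 kb for effectors and 6.06 kb for G proteins. These medians lie from 5 to 20 kb, but the genes with a peak were often longer. Ac13E, Ac78C, Pka-C3, Pka-R2, Epac and Galphao were from 20 to 50 kb, where the share was 54.4%. The gene rg was in the class of 59.9%, and the others with a peak in these roles were in that of 34.4%. Of 9 further adenylyl cyclases, Ac13E had 2 peaks, the higher of signal 441, and Ac78C had 1 of signal 337. Of 8 PKA subunits and anchors, 5 had one, led by Pka-C3 (375), the anchor gene rg (194), the regulatory subunit gene Pka-R2 (158) and the anchor gene spoon (151). Of 4 genes listed as cAMP effectors, 3 had one: the transcription factor genes CrebA (241, 3 peaks) and CrebB (176, 4 peaks) and the exchange factor gene Epac (187). The Epac summit had Cyp6a2 as its nearest start. Of 11 G protein genes, Gbeta13F (154), Galphao (130) and Galphai (119) had one, and the Gbeta13F peak had no counterpart in replicate 1.

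Of 18 neuropeptide and peptide receptor genes, the class of sNPF, 2 had an IDR peak: the receptor gene Dh31-R (378) and the memory gene amnesiac (amn, 194), whose summit had Hers as its nearest start. Of 8 other olfactory memory genes 5 had one (median length 15.0 kb, against 13.0 kb for the peptide genes), and the highest were Adf1, a transcription factor gene (870), the kinase gene gish (471), the integrin gene scb (445) and the translational regulator gene orb2 (233). The Adf1 peak ranked 47 pooled, 21 in replicate 1 and 107 in replicate 3, above every peak of the 7 genes in each list.

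**Figure D5:**
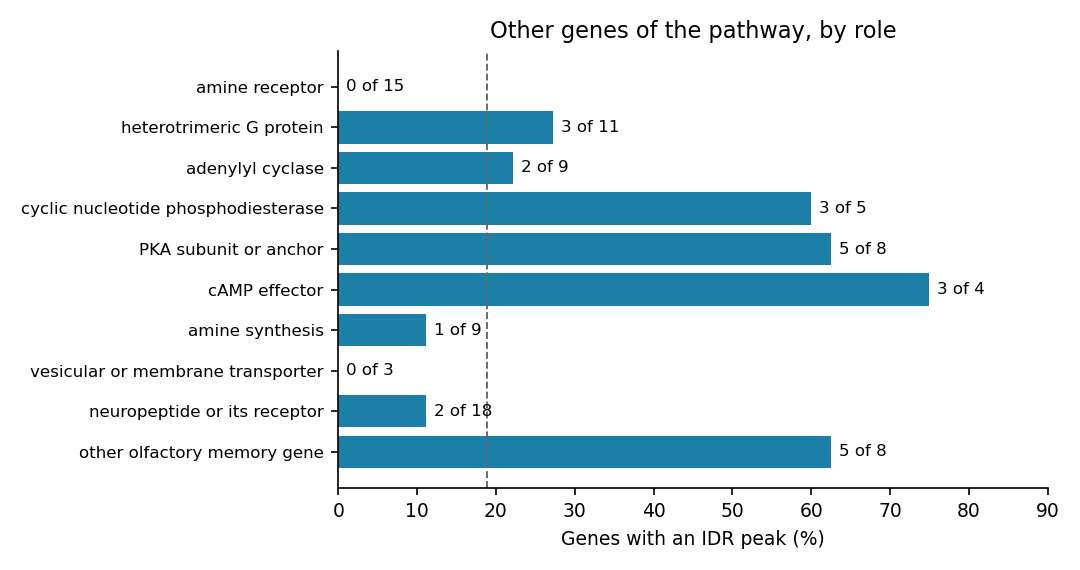
Percent of genes with an IDR peak in each of 10 roles of the 90 other pathway genes (horizontal axis), with the count of genes written beside each bar. The dashed line is the 18.9% of all protein-coding genes and does not allow for length (34.4% of genes from 5 to 20 kb and 59.9% of those of 50 kb or more had a peak), and the amine receptors and transporters stand at 0.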

How the data were processed

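The authors deposited peak lists on the dm6 and dm3 builds. Every peak carries a signal, which the authors deposited with no scale named, and a q-value, deposited as −log10 q. The aligner, peak caller, IDR threshold and depth were not given in the sources used here. Replicates are biological, per the labels. The 4 dm6 lists were used, and the dm3 lists were not, since no dm3 annotation was used.

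Summits were assigned with Python 3.11.15, numpy 2.4.6 and scipy 1.17.1 to protein-coding genes of Ensembl release 115 by a script checked on simulated summits, with no filter on signal. A summit within 500 bp of a TSS was called promoter, then CDS, UTR, other exon, intron or intergenic. Intervals are exact Poisson at 95% and cover counting error only. A count of 0 was given the limit of 3 counts. With 1 group and no control, no test was run and values are set beside the same share of all genes or peaks. Alternatives varied the assignment, list, threshold, replicate, overlap and windows.

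The 7 genes, the 90 pathway genes, the motifs and the rule for named genes were chosen with earlier results of these data known. Named genes are all 7 with every IDR peak and best relaxed peaks, nested genes, and up to 4 pathway genes a role by IDR signal. The amine receptors and transporters named without an IDR peak were added after their values were seen, as were the 8-base word, the dnc stretch and the 250 bp bound. The list symbols Trh and rad were matched to Trhn and rsh through RefSeq synonyms.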

Additional observations from a re-analysis of the deposited data

How the results depend on the processing

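With IDR peaks above the median signal only, 1 of the 7 genes (dnc) kept a peak, 4 peaks remained in all, and 14 pathway genes had one. Over all 13945 protein-coding genes, the count fell from 2641 to 1631 at that setting. With pooled peaks at a q-value of 0.05 or less, the 7 genes had 21 peaks, the pathway list had 40 genes with one, and the dnc body held 7.77 peaks per 100 kb. Of all protein-coding genes, 4161 (29.8%) had such a peak. With a promoter window of 200 bp, 1 summit was a promoter summit. From the 4137 highest peaks of 1 replicate in place of the IDR list, 3 to 4 of the 7 genes had a peak, with 9 to 10 peaks in all, and 19 to 24 pathway genes had one. Over all protein-coding genes, the counts were 2520 from replicate 1 and 2731 from replicate 3. Without replicate 1, sNPF had no peak and dnc had 7, and without replicate 3, Pka-C1 had 2. Counting the gene body alone, sNPF had no peak. For all protein-coding genes, the gene body alone gave 1464 genes with a peak and a margin of 5000 bp gave 5248. Dop1R1, Oamb and prt had no peak under any of the alternatives for single genes. Of the recomputed values, 89 stayed within 1.5 times the reported count, or equal to it, and 21 moved further. The cause was not tested. The 89 are no measure of robustness. They include the highest pooled peaks, which gave the same values as the IDR list throughout, and the counts of Dop1R1, Oamb and prt, which stayed at 0.

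The lists hold no read counts, so the depth behind a peak is unknown and a missing peak says only that none was called. The IDR list draws on both replicates and is not separate from them. No mock sample was analysed here, and the tissue of each site is unknown.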
